A study of Drosophila melanogaster with 4 samples.

Results

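The genes described are those of the cytosolic ribosome of Drosophila melanogaster, read on 4 genome-wide expression arrays. A gene was a member when a probe set carried a single gene symbol that began with RpL or RpS and a number (RpLP0 to RpLP2 included) or was sta, RpS5b or RpL22-like. This gave 41 genes of the 11982 with a single-symbol probe set. No probe set of that kind carried sta. A gene with several probe sets was read on the one with the highest mean over the arrays.

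All flies were wildtype Canton-S males, young adults of 1 to 2 days, and RNA was taken from the flies with no dissection named in the labels. The control group was not exposed. The other 3 groups sat for 24 h in mesh-closed vials with standard medium inside a bottle holding vapour of benzene, toluene or formaldehyde. Each group is 1 array, which limits how precise any value can be. The labels used here give neither the vapour concentrations nor how many flies went into an RNA sample. No difference could be set against a spread between replicates, so none has a p-value or standard error. All values are log2 probe set values as the authors deposited them, and a ratio is the difference of 2 such values.

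The cytosolic ribosome makes the cell's proteins. Its small subunit reads the mRNA, and its large subunit joins amino acids and carries a flexible stalk that recruits translation factors. One protein copy of nearly every kind is needed per ribosome, and flies that lose 1 gene copy of many of these proteins show the slow-growing, short-bristled Minute phenotype. Several fly ribosomal proteins are encoded by a pair of genes, one active in all tissues and one with a narrower expression, often in the germline of the testis or ovary.

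The members were sorted by that knowledge into 29 principal copies (11 of the small and 18 of the large subunit), 9 lesser copies and 3 assembly factors. The assembly factors, RpL24-like, RpL7-like and RpLP0-like, are named for ribosomal proteins they resemble, and their yeast relatives act while ribosomes are being built. The principal copies covered 29 of 79 ribosomal protein families, and the other families are not analysed here except 5 that had a lesser copy alone. All 41 members lay at or above the array median on all 4 arrays, so none was lost to the filter on dim probe sets. Detected, for any gene and pair of arrays, means that the brighter value was no lower than the median of its own array (6.42 to 6.46, array controls left out).

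The labelled sex was checked against marker lists. Of 15 yolk and eggshell genes, which mark female tissue, 7 lay below background on all 4 arrays, Yp1 and Yp2 among them, 7 lay above it on all 4, and Yp3 alone was detected, at 7.11 to 7.21. Background was the 95th percentile of 20 probe sets for unspiked control RNAs (4.64 to 4.88). Of 41 spermatocyte and spermatid genes, 38 lay above background on all 4 arrays.

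Principal copies stood near the top of the signal range and were nearly the same on every array. Their means ran from 11.97 (RpL37-1) to 13.72 (RpL41, a very short basic peptide of the large subunit), and the dimmest of them was at or above 97.4% of all genes. The gap between a gene's highest and lowest array had a median of 0.05 log2 units over the 29 genes and ran from 0.02 (RpS27A) to 0.13 (RpS20). Over the 8250 genes that reached the median on any array it was 0.21. None of the 29 reached 2-fold in any of the 6 comparisons between arrays. Among all detected genes the share at or past 2-fold, relative to the control array, was 0.43% (benzene), 0.283% (toluene) and 1.11% (formaldehyde). Between exposures it was 0.443% (toluene over benzene), 1.01% (formaldehyde over benzene) and 0.859% (formaldehyde over toluene). Counts of 0 in 29 are therefore near the background.

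**Figure D1:**
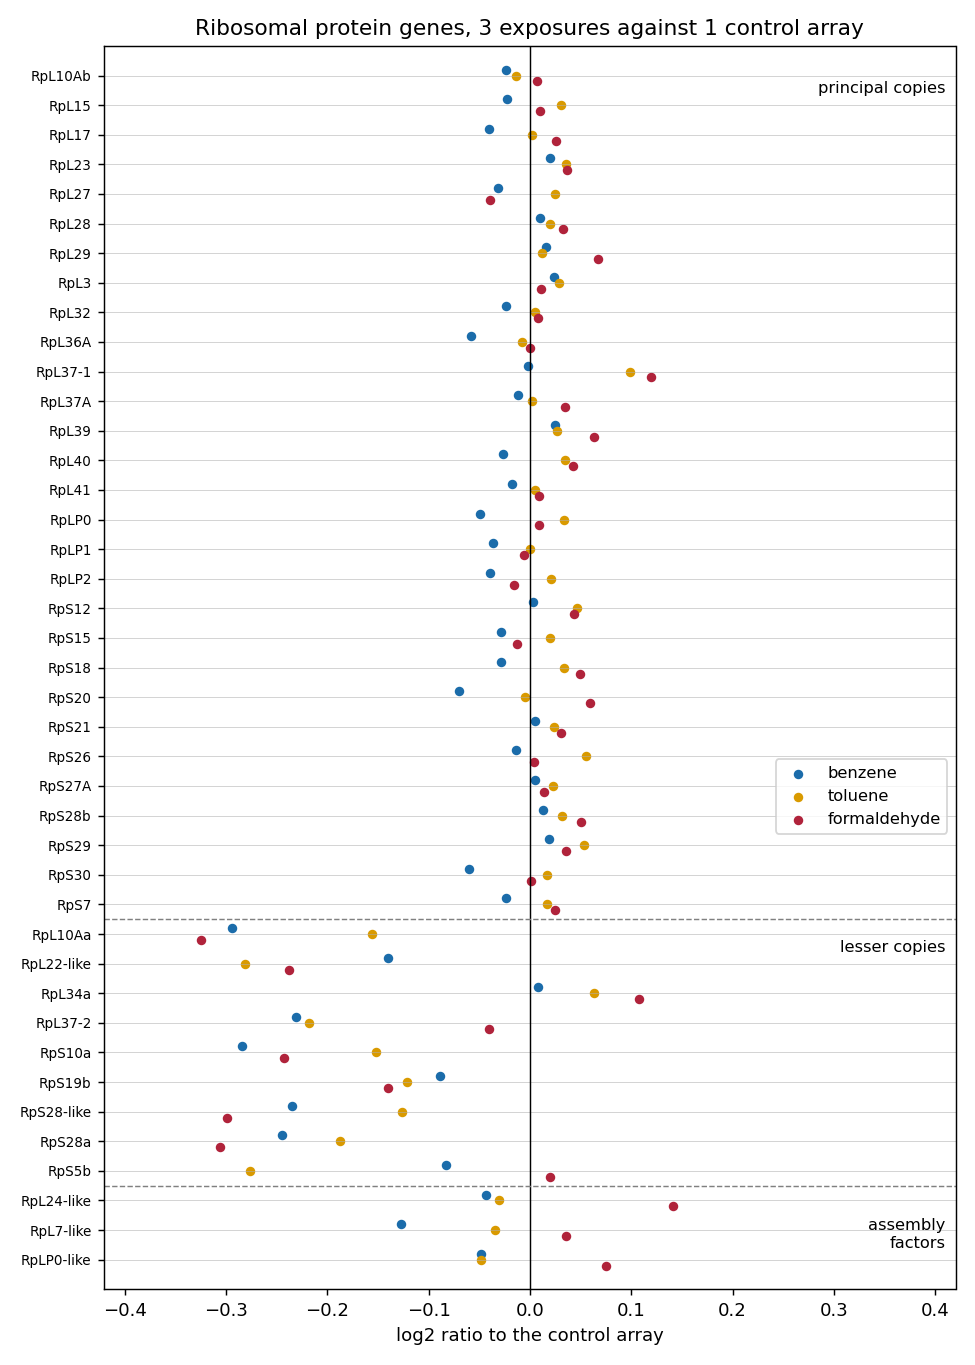
Log2 ratio to the control array (x axis) for each of the 41 genes (y axis), 1 point per exposure and no error bars because each group is 1 array. The 29 principal copies lie between -0.07 and 0.12, whereas 8 of the 9 lesser copies have points to the left of them.

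How tightly the principal copies held to 0 was described with a band of 0.1 log2 units, a width chosen after the values were seen. On the benzene array 29 of 29 lay within it, against 50.3% of all 8134 detected genes. On the toluene array 29 of 29 did, against 49.9% of 8140. On the formaldehyde array 28 of 29 did, against 38.4% of 8165, and the exception was RpL37-1 at 0.12. Bright probe sets as a class were also closer to 0 than all genes. Of the 285 other genes at least as bright as RpL37-1, 61.4% (benzene), 60.0% (toluene) and 53.0% (formaldehyde) lay within 0.1. That set shares the lower limit of the principal copies but is dimmer, with a median mean value of 12.64 against 13.10.

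**Figure D2:**
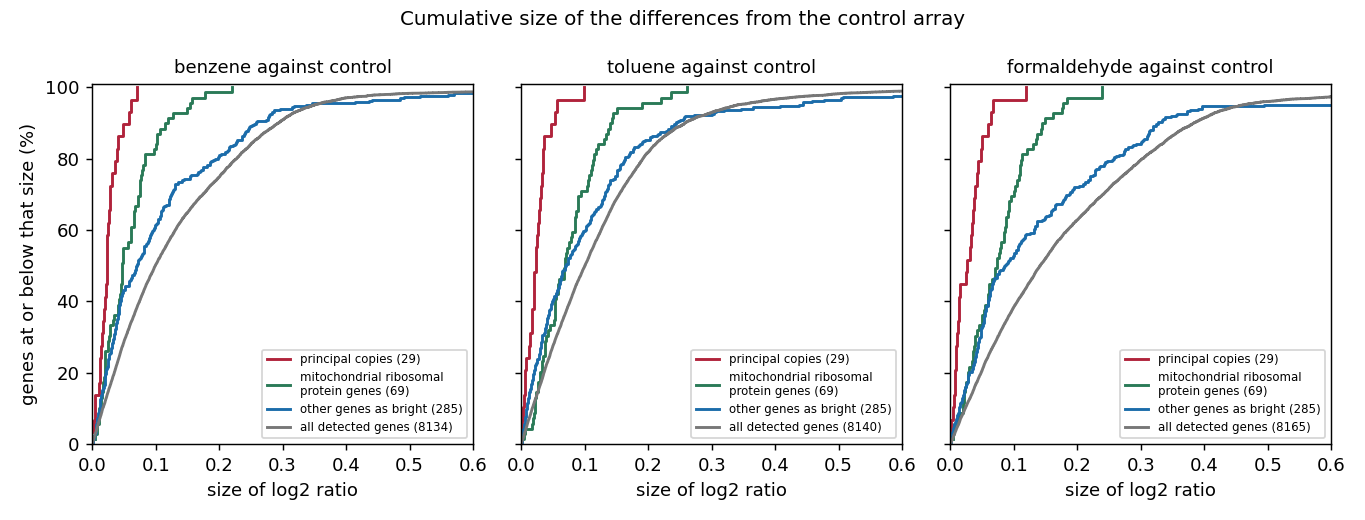
Cumulative percentage of genes (y axis) whose log2 ratio to the control array is no larger than the size on the x axis, 1 panel per exposure. The curve of the principal copies reaches 100% by 0.12 in every panel. The mitochondrial ribosomal protein genes, the other genes at least as bright as RpL37-1 and all detected genes follow to the right.

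The median principal copy stood at -0.02 (benzene), 0.02 (toluene) and 0.02 (formaldehyde) relative to the control array. The medians of all detected genes were -0.02, 0.01 and 0.01. With benzene 10 of the 29 were above 0, where 42.9% of detected genes were. With toluene 25 were above 0, against 51.5%, and with formaldehyde also 25, against 52.3%. The benzene direction is small enough to turn with the scaling. When each array was centred on its own median, the benzene median became 0.01 and 22 genes were above 0, against 52.1% of detected genes. The toluene medians stayed above 0, at 0.01 with quantile scaling and 0.04 with median centring, and those of formaldehyde at 0.01 and 0.03. Their counts changed. For toluene 19 were above 0 with quantile scaling, against 47.1%, and 29 with median centring, against 55.5%. For formaldehyde 16 were above 0 with quantile scaling, against 48.5%, and 25 with median centring, against 53.2%.

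Small and large subunit genes had close medians. The medians of the 11 small subunit genes were -0.01, 0.02 and 0.03 in the order benzene, toluene, formaldehyde. Those of the 18 large subunit genes were -0.02, 0.02 and 0.01. With median centring the benzene medians became 0.02 and 0.01. Within the benzene comparison the lowest were RpS20 (-0.07), RpS30 (-0.06), which is made as a fusion with a ubiquitin-like protein, and RpL36A (-0.06). The highest were RpL39 of the peptide exit tunnel, RpL3 near the catalytic centre and RpL23, each at 0.02. On the toluene array RpL37-1 (0.10), RpS26 (0.06) and RpS29 (0.05) were highest, and RpL10Ab (-0.01), RpL36A (-0.01) and RpS20 (0.00) lowest. On the formaldehyde array RpL37-1 (0.12), RpL29 (0.07) and RpL39 (0.06) were highest, and RpL27 (-0.04), RpLP2 (-0.02) and RpS15 (-0.01) lowest.

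RpL37-1, the dimmest principal copy, had the largest ratio to the control among the 29. It read 11.91 on the control array, 11.91 with benzene, 12.01 with toluene and 12.03 with formaldehyde. The toluene and formaldehyde arrays were thus above the other pair. Under quantile scaling its ratios shrank to 0.01 for toluene and 0.07 for formaldehyde.

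The stalk genes moved little. RpLP0, the stalk's base, read 12.62 (control), 12.57 (benzene), 12.65 (toluene) and 12.63 (formaldehyde). RpLP1 read 13.30, 13.27, 13.30 and 13.30 in that order, and RpLP2 13.25, 13.21, 13.27 and 13.24. The benzene array was lowest for each of the 3, by at most 0.05 against the control. RpL32, widely used as a reference gene in fly expression work under its older name rp49, read 13.11, 13.09, 13.12 and 13.12. Its largest difference from the control was thus -0.02, on the benzene array. RpS27A and RpL40, both made as fusions with ubiquitin, spanned 0.02 and 0.07 over the 4 arrays.

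Most lesser copies lay lower on the exposed arrays than on the control array. The median of their 9 ratios was -0.23 with benzene, -0.16 with toluene and -0.24 with formaldehyde. Below 0 were 8 of 9 with benzene, against 57.1% of detected genes. With toluene 8 of 9 were below 0, against 48.4%, and with formaldehyde 7 of 9, against 47.7%. None reached 2-fold, which is near the background of 0.43% (benzene), 0.283% (toluene) and 1.11% (formaldehyde) of all detected genes. Within 0.1 of the control lay 3, 1 and 2 of the 9, against 50.3%, 49.9% and 38.4%. The 3 comparisons share the control array, so its own deviation enters each of them. The medians were at or below -0.14 under both other scalings. With a filter at the 75th percentile, which leaves 6 of the 9, they were -0.11, -0.14 and -0.19.

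**Figure D3:**
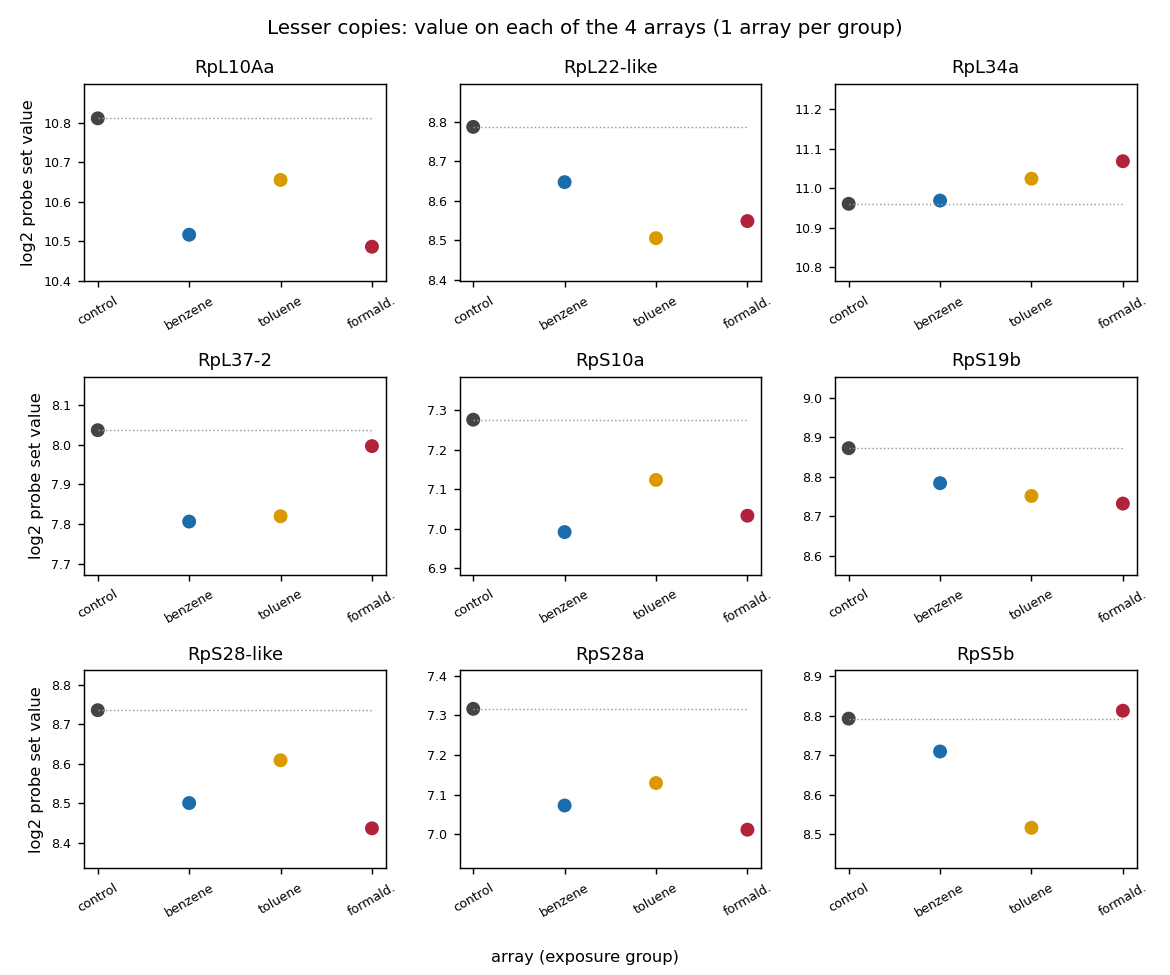
Log2 probe set value (y axis, 0.5 log2 units in each panel) of the 9 lesser copies on the 4 arrays (x axis), with the control value as a dotted line and 1 array per point. RpL10Aa has its highest point on the control array, at 10.81, whereas RpL34a is lowest there, at 10.96, and RpS5b is highest with formaldehyde, at 8.81.

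RpL10Aa, the second gene for the large subunit protein L10A, showed the largest difference among the members. It read 10.81 on the control array, 10.52 with benzene, 10.66 with toluene and 10.49 with formaldehyde. The control array was highest and the formaldehyde array lowest, with a ratio of -0.32, or 0.80 times the control. Its principal partner RpL10Ab read 13.12, 13.10, 13.11 and 13.13. The lesser copy's ratio was therefore below its partner's by -0.27 (benzene), -0.14 (toluene) and -0.33 (formaldehyde).

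RpS28 of the small subunit has 2 lesser copies on the array. RpS28a read 7.32 (control), 7.07 (benzene), 7.13 (toluene) and 7.01 (formaldehyde), and RpS28-like read 8.74, 8.50, 8.61 and 8.44. For both, the control array was highest, toluene next, then benzene, with formaldehyde lowest. The principal copy RpS28b was lowest on the control array and highest with formaldehyde, but like them higher with toluene than with benzene. It read 13.40 (control), 13.41 (benzene), 13.43 (toluene) and 13.45 (formaldehyde), a range of 0.05. Relative to RpS28b, the ratio of RpS28a was -0.26, -0.22 and -0.36 in the order benzene, toluene, formaldehyde, and that of RpS28-like -0.25, -0.16 and -0.35.

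RpL37-2 followed a different order. It read 8.04 on the control array, 7.81 with benzene, 7.82 with toluene and 8.00 with formaldehyde. Benzene and toluene were low together, whereas formaldehyde lay close to the control, at -0.04. Against its partner RpL37-1 the differences in ratio were -0.23, -0.32 and -0.16.

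The other lesser copies had no partner among the members. RpS10a read 7.28 (control), 6.99 (benzene), 7.12 (toluene) and 7.03 (formaldehyde), with ratios of -0.28, -0.15 and -0.24, so that every exposed array was below the control. RpL22-like, an L22 protein found in the male germline, read 8.79, 8.65, 8.51 and 8.55, with ratios of -0.14, -0.28 and -0.24. RpS19b read 8.87, 8.78, 8.75 and 8.73, with the control array highest and ratios of -0.09, -0.12 and -0.14.

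RpS5b, a germline-enriched gene, was low on 1 array. It read 8.79 (control), 8.71 (benzene), 8.52 (toluene) and 8.81 (formaldehyde). Its toluene ratio was -0.28, whereas its formaldehyde ratio was 0.02, and 0.00 after quantile scaling.

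RpL34a did not follow the other lesser copies. It read 10.96 on the control array, 10.97 with benzene, 11.02 with toluene and 11.07 with formaldehyde. The control array was lowest and formaldehyde highest, at 0.11 above it. Its place among the lesser copies comes from general knowledge and is uncertain. The small benzene difference of 0.01 turned to -0.02 under quantile scaling. Without RpL34a, a choice made after its values were seen, the other 8 lesser copies had medians of -0.23, -0.17 and -0.24, with 8, 8 and 7 below 0.

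Copies can also be split by symbol alone, with a b suffix or -like marking the paralog. That split puts RpS28b and RpL10Ab, the widely expressed copies, and the 3 assembly factors among 9 paralogs, and leaves RpS28a, RpS10a, RpL10Aa, RpL34a and RpL37-2 among 32 main copies. Medians were then -0.08, -0.05 and 0.02 for the paralogs and -0.02, 0.02 and 0.01 for the main copies. With formaldehyde 6 of the 9 paralogs were above 0, against 52.3% of all detected genes. These were the 3 assembly factors, RpS28b, RpL10Ab and RpS5b. The medians of the classes thus lie apart when copies are sorted by role and closer together when they are sorted by symbol. Roles were given with earlier results of these data known, so this difference is no support for the sorting by role. The lesser copies are also dimmer than the principal copies, with median mean values of 8.62 and 13.10. No set of other genes was chosen to match the brightness of the lesser copies. The mitochondrial ribosomal protein genes described below had a median mean value of 8.57 and medians of 0.04, 0.06 and 0.00. The part of brightness in the values of the lesser copies was not tested.

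Spermatocyte and spermatid genes, a part of the male germline, were also lower on the exposed arrays than on the control array. These comparisons share the control array, so its own deviation enters each of them. Of 35 detected spermatocyte and spermatid genes, 34 lay below 0 with benzene (median -0.24), against 57.1% of all detected genes; the exception was nht, a TAF homologue of spermatocytes, at 0.28, named after its value was seen. With toluene 34 of 34 were below 0 (median -0.16), against 48.4%, and with formaldehyde 34 of 34 (median -0.31), against 47.7%. The mean of the list's log2 values over 41 genes was 9.45 on the control array, 9.23 with benzene, 9.29 with toluene and 9.18 with formaldehyde. Only aly and twe of the list were below background on every array. In RNA from many tissues, fewer cells of a type and less RNA per cell cannot be told apart. The part of testis content in the values of the lesser copies was not tested.

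**Figure D4:**
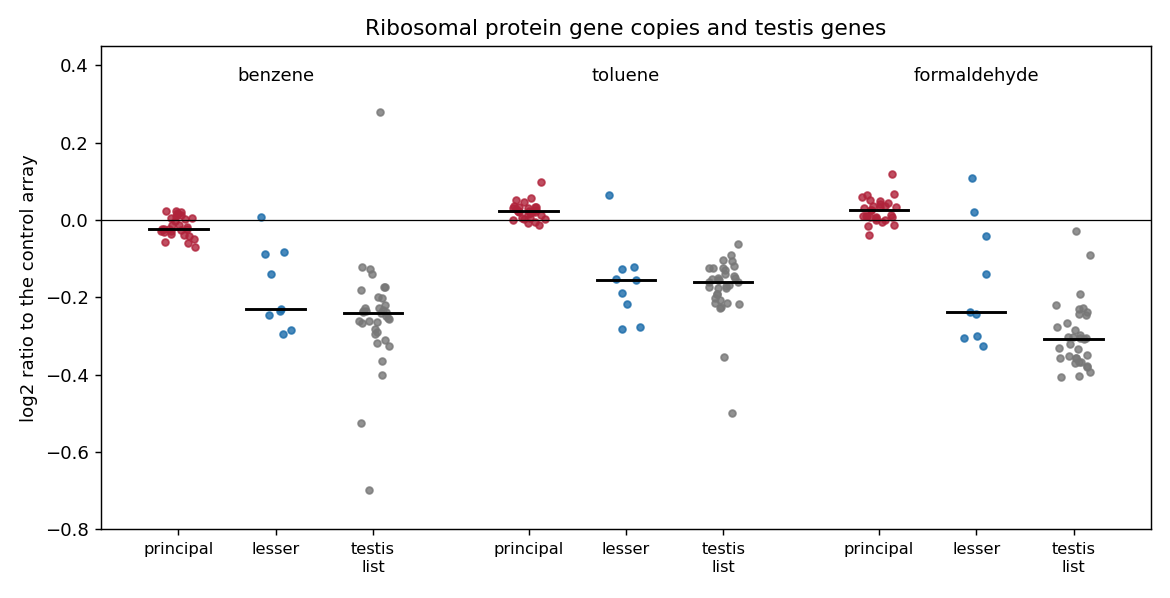
Log2 ratio to the control array (y axis) of the 29 principal copies, the 9 lesser copies and the detected genes of the testis list for each exposure, 1 point per gene and a bar at the median. The medians of the lesser copies, -0.23, -0.16 and -0.24, lie near those of the testis list, -0.24, -0.16 and -0.31.

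Named leaders of the testis list were fzo, a mitochondrial fusion gene of spermatids (-0.70, -0.50 and -0.37 for benzene, toluene and formaldehyde), and Prosalpha3T, a testis proteasome subunit (-0.53 with benzene, -0.36 with toluene). With benzene h-cup (-0.40) came next, with toluene the testis tubulin gene betaTub85D (-0.23). On the formaldehyde array Tpl94D, a chromatin protein of spermatids, was at -0.41, schuy at -0.40 and Mst98Cb at -0.39. Of the early germline genes 8 of 19, vas and bam among them, lay below background on all 4 arrays. In the 5 detected, the median was -0.04, -0.06 and 0.09. In that list mael, a piRNA pathway gene, was lowest at -0.19, -0.27 and -0.25; bgcn was at -0.11, -0.07 and -0.10. In the same list gcl was at 0.09 with benzene and 0.14 with toluene, and tud at 0.14 with formaldehyde.

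Seminal fluid genes, another male-specific group, were lower as well, with medians of -0.08, -0.12 and -0.19. Below 0 were 21, 20 and 20 of 23, against 57.1%, 48.4% and 47.7% of all detected genes. With benzene lectin-46Ca (0.15), Acp32CD (-0.14) and intr (-0.14) lay farthest from 0, with toluene Sems (-0.21), antr (-0.20) and intr (-0.19), and with formaldehyde Acp53C14c (-0.37), Sems (-0.31) and Acp76A (-0.30). The single detected yolk gene, Yp3, was at 0.02, 0.09 and 0.07.

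RpL24-like read 9.93 (control), 9.88 (benzene), 9.90 (toluene) and 10.07 (formaldehyde). RpL7-like read 9.61, 9.49, 9.58 and 9.65, and RpLP0-like 6.93, 6.89, 6.88 and 7.01. Each was highest with formaldehyde, at 0.14, 0.04 and 0.08 above the control, and each was below the control with benzene and toluene. With formaldehyde RpL7-like and RpLP0-like lay within the range of the principal copies and RpL24-like above it. Those directions held under both other scalings.

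The wider set of ribosome assembly genes gave medians of -0.12, -0.01 and 0.16 for benzene, toluene and formaldehyde. Of 21 detected, 17 were below 0 with benzene, against 57.1% of all detected genes, and 17 above 0 with formaldehyde, against 52.3%. With toluene 8 were above 0, against 51.5%, and the median turned to 0.01 when arrays were centred on the median. None reached 2-fold. With formaldehyde Nop60B, the pseudouridine synthase of ribosomal RNA, read 7.72 against 7.28 on the control array, a ratio of 0.44. Nop56, of the methylation complex of ribosomal RNA, was at 0.34. The list's highest gene there, pes (0.59), was listed in error, since in flies that symbol is a scavenger receptor gene. Without it the medians were -0.12, -0.01 and 0.13, with 17 of 20 below 0 for benzene and 16 of 20 above 0 for formaldehyde. With benzene the lowest were Bka (-0.26), Surf6 (-0.25) and Nop60B (-0.24). With toluene mbm (-0.24), l(3)72Dp (0.18) and Surf6 (-0.18) lay farthest from 0.

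Of 22 initiation factor genes 18 (benzene), 21 (toluene) and 16 (formaldehyde) lay within 0.1 of the control, against 50.3%, 49.9% and 38.4% of all detected genes. Of the 22, 7 (benzene), 14 (toluene) and 18 (formaldehyde) were above 0, against 42.9%, 51.5% and 52.3%, with medians of -0.01, 0.01 and 0.07; the first turned to 0.02 under both other scalings and the second to -0.01 with quantile scaling. Farthest from 0 were eIF4G1 (0.14), eIF6 (-0.14) and eIF5B (-0.14) with benzene. With toluene they were eIF2beta (-0.21), eIF3j (0.10) and eIF4B (0.09), and with formaldehyde eIF3c (0.16), eIF3d1 (0.14) and eIF3j (0.12). The 6 elongation and termination genes had medians of 0.03, 0.05 and 0.05. The release factor gene eRF3 was at 0.20, 0.05 and 0.14, eEF1delta at 0.09 and 0.16 with benzene and toluene, eEF1gamma at 0.06, 0.08 and 0.14, and eEF1alpha2 at 0.06 with formaldehyde.

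A list of genes of TOR and ribosome signalling holds activators and inhibitors, so its counts give no direction of TOR activity. Among the inhibitors are Tsc1 (0.02 with formaldehyde) and gig (0.05). Of the 14 detected genes of this TOR list 13 were above 0 with formaldehyde (median 0.14), against 52.3% of all detected genes. With benzene 9 of 13 were above 0, against 42.9%, and with toluene 8 of 14, against 51.5%. Akt, the insulin pathway kinase gene, read 8.80 against 8.28 on the control array, a ratio of 0.52, and was at 0.26 with benzene and 0.17 with toluene. Pdk1 (0.26) and Lk6 (0.25), both kinase genes, followed with formaldehyde. The medians for benzene and toluene were 0.03 and 0.01, the latter -0.01 under quantile scaling. The list's others farthest from 0 were larp (0.19) and Irbp18 (0.13) with benzene, and Irbp18 (0.18) and the amino acid transporter gene slif (-0.13) with toluene. Of 8 RNA polymerase I and III genes only 3 were detected: Polr1A at 0.12, 0.14 and 0.25, Polr1E at -0.08, -0.15 and 0.07, and Tif-IA at -0.19, -0.15 and -0.12.

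Mitochondrial ribosomal protein genes, which serve the organelle's own ribosome, spread more widely than the principal cytosolic copies. Of 69, all detected, 57 (benzene), 49 (toluene) and 48 (formaldehyde) lay within 0.1 of the control, against 50.3%, 49.9% and 38.4% of all detected genes. The SD of their ratios was 0.07, 0.07 and 0.10, against 0.03, 0.02 and 0.03 for the 29 principal copies. They are also dimmer, with a median mean value of 8.57 against 13.10. Their medians were 0.04, 0.06 and 0.00, and the last turned to -0.02 under quantile scaling.

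Benzene and toluene, which differ by a methyl group, were compared with each other at the same 24 h; their doses are not given. Of the principal copies 28 of 29 were higher with toluene and 1 lower, against 65.6% and 34.4% of 8126 detected genes. Within 0.1 of each other lay 28 of 29, against 60.2%. The median was 0.04 both for them and for all detected genes. With arrays centred on their medians 21 of 29 were higher, against 59.0% of detected genes, and the median was 0.02. RpL37-1 (0.10), RpLP0 (0.08) and RpS30 (0.08) were highest, and RpL29 (0.00), RpL39 (0.00) and RpL3 (0.01) lowest. Of the lesser copies 6 of 9 were higher with toluene, with a median of 0.06 (0.01 under quantile scaling). RpS5b (-0.19) and RpL22-like (-0.14) were lower with toluene, and RpL10Aa (0.14), RpS10a (0.13) and RpS28-like (0.11) higher. With 1 array each, no interval of these differences could be given.

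Formaldehyde was set against the other exposures too. Relative to benzene 27 of 29 principal copies were higher and 2 lower, against 54.7% and 45.3% of 8150 detected genes (median 0.03). With median centring 18 were higher and 11 lower, where 46.1% of detected genes were higher, and the median was 0.00. In the deposited values RpS20 (0.13), RpL37-1 (0.12) and RpS18 (0.08) were highest. RpL3 (-0.01), RpL27 (-0.01) and RpS27A (0.01) were lowest. Within 0.1 of benzene lay 27 of 29, against 53.6%. Relative to toluene 17 of 29 were higher and 12 lower, against 44.4% and 55.6% of 8145 (median 0.00). With median centring 10 were higher, against 41.7% of detected genes, and the median was -0.01. All 29 lay within 0.1 of toluene, against 48.5%. RpS20 (0.06), RpL29 (0.05) and RpL39 (0.04) stood at one end, and RpL27 (-0.06), RpS26 (-0.05) and RpLP2 (-0.04) at the other. The lesser copies had medians of -0.03 and -0.02 in these comparisons. Farthest from 0 was RpS5b against toluene, at 0.30.

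Several members had further probe sets. The second bright RpS29 probe set had ratios of 0.01, 0.02 and 0.04, beside 0.02, 0.05 and 0.04 at the chosen one. A dimmer RpL3 probe set, at 6.88 on the control array, was at 0.09, 0.05 and 0.17. The others, 1 each of RpL3, RpS29, RpS30 and RpS7, lay below the array median on every array. Of the chosen probe sets of principal copies 14 of 29 are of the array's _s_at class, whose probes match several transcripts. Their values may thus hold more than 1 transcript. No chosen probe set of a lesser copy is of that class. A further 2 principal copies and 1 lesser copy, RpL34a, were read on the _a_at class, whose probes match several transcripts of the same gene.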

How the data were processed

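One table with a column for each of the 4 arrays was used. Its values, 2.43 to 14.48, are log2 probe set values as deposited. Per the submitters' processing notes, the tools were Affymetrix Expression Console 1.1, RMA and MAS5; which of them made the table is not stated. Per the labels' protocols, 300 ng total RNA was labelled with a 3' kit. Whether bright probe sets were near saturation was not measured.

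Groups came from sample titles. Of 18952 probe sets 183 were array controls; 13647 of the others had 1 symbol in the platform annotation, 402 several and 4720 none. All 41 members matched RefSeq's Release 6 fly annotation, used for names alone. Values were used unchanged, with Python 3.11.15 and pandas 2.3.3, and the ratio code was tested on simulated data. With 1 array per group no test was possible.

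Members, copy roles (from general knowledge) and lists were chosen with earlier results of these data known. Some list genes were dropped on annotation grounds after the table was at hand but before list values were computed. The 0.1 band, the 285 genes at least as bright as RpL37-1, the mitochondrial set, the lesser set without RpL34a, the assembly list without pes, and the thresholds behind moved values and listed signals were chosen after values were seen. Named are the lesser copies and their partners, the 3 highest and 3 lowest principal copies per comparison, the stalk genes, the assembly factors, and the 3 members of each list farthest from 0 per exposure. Other genes were named after their values were seen. Alternatives were quantile scaling, median centring, no filter, a filter at the 75th percentile, the mean of a gene's probe sets, 1.5-fold, copies sorted by symbol suffix, the lesser copies without RpL34a, and the assembly list without pes.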

Additional observations from a re-analysis of the deposited data

Results flagged for a closer look

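Signals outside the comparisons were listed where a probe set for fly RNA that no comparison uses exceeded the control array by more than the robust SD over all detected genes (0.15 for benzene and toluene, 0.21 for formaldehyde). Among them were the array's control probe sets for 18S ribosomal RNA, the RNA of the small subunit. With formaldehyde the 3′, 5′ and middle probe sets were 0.32, 0.50 and 0.64 above the control array. With benzene the 3′ and middle ones were at 0.18 and 0.16, and with toluene the middle one at 0.15, the 3′ one being at -0.10. Of the 24 probe sets for poly-A control RNAs 10 passed the same limit with benzene (median 0.13), 2 with toluene (median -0.01) and 2 with formaldehyde (median 0.11). Their highest value was 0.51, 0.25 and 0.45 in that order, on a middle probe set of lys. These 24 probe sets are parts of the dap, lys, phe and thr RNAs, so they are not 24 separate signals. Of the 4 probe sets for the cre hybridisation control 0 passed the limit, with medians of -0.03, -0.06 and -0.08. The share of all detected genes past the limit is not given here. A probe set whose annotation names both RpLP0 and euc was at 0.26 with benzene, 0.23 with toluene and 0.23 with formaldehyde, while the probe set of RpLP0 alone was at -0.05, 0.03 and 0.01. No cause was tested.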

How the results depend on the processing

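No paired analysis was possible because each group is 1 array. A median counted as moved when it shifted by 0.10 log2 units or more, the robust SD of the ratios of toluene to benzene over all detected genes, and a count when it shifted by over 1.5 times. Of 276 recomputed values 256 did not move. Among the 276, 84 were counts of genes past the fold, and these were all 0. Medians as near 0 as those of the principal copies could hardly shift by 0.10, so the number that did not move says little about them. Under every setting 0 members passed 1.5-fold or 2-fold. Of all detected genes 0.283% to 1.11% were at or past 2-fold with the deposited values, and the share past 1.5-fold is not given here. Of 114 recomputed medians of the principal copies, the lesser copies and the pairs, 11 changed sign after rounding to 0.01, with classes sorted by suffix except for the principal copies with benzene (-0.02 to 0.01 with median centring) and the lesser copies for formaldehyde over toluene (-0.02 to 0.01 with the 75th percentile filter). Sign changes of the other gene lists under the scalings stand beside their values. With median centring, principal copies above 0 numbered 22 for benzene against control and 10 for formaldehyde against toluene. Of all detected genes 52.1% and 41.7% were above 0 there. With quantile scaling, principal copies above 0 numbered 16 for formaldehyde against control, against 48.5% of detected genes. For benzene 0 lesser copies were then above 0, against 49.0%. With the 75th percentile filter, which leaves 6 lesser copies, the benzene median was -0.11, and 3 (toluene over benzene) and 2 (formaldehyde over benzene) were above 0. With copies sorted by symbol suffix, the lesser class had medians of -0.08, -0.05 and 0.02 for benzene, toluene and formaldehyde against control. Of its 9 genes 6 were above 0 for formaldehyde, against 52.3% of detected genes, and 7 for formaldehyde over toluene, against 44.4%. The median difference within a pair then turned to 0.26, 0.14 and 0.33 against control. It turned to 0.06 for formaldehyde over benzene and 0.14 for formaldehyde over toluene, and also changed sign for toluene over benzene. Sorting by suffix swaps RpL10Aa with RpL10Ab and RpS28a with RpS28b, which turns the sign of those pairs by construction. That sorting also sets RpS28-like against RpS28a and drops the pair of RpL37-2 and RpL37-1. Without RpL34a, left out after its values were seen, the lesser copies above 0 numbered 0, 0 and 1 for benzene, toluene and formaldehyde against control. Causes beyond construction were not tested. With 1 array per group, no spread between replicates is known for any of these values.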
